A study of Mus musculus with 6 samples.

Results

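The replication-dependent histone genes are the clustered gene copies that supply the bulk of new histone protein when a cell copies its DNA. They were taken by symbol from a table of RPKM values, that is, the number of reads relative to the length of the gene and to all reads of the library. Of 65 matching symbols, 3 were left out as annotated pseudogenes, which left 62 of the 23381 genes in the table. These comprised 5 linker histone H1 genes, 16 H2A genes, 17 H2B genes, 12 H3 genes and 12 H4 genes, with 52 on mouse chromosome 13 and 10 on chromosome 3. All 62 were annotated as protein coding in the GENCODE M21 gene set of the mm10 (GRCm38) build, which follows in part from leaving out pseudogenes. All were on these 2 chromosomes.

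The RNA came from tumours of 4T1, a carcinoma line of mouse mammary origin, raised by injecting 500000 cells into the inguinal mammary fat of Balb/c mice aged 10 weeks. Once tumours had formed, one group received Vismodegib, a small molecule that binds the Hedgehog pathway receptor Smoothened, at 2 mg per mouse, and the other received the vehicle DMSO, each 3 times a week for 3 weeks. There were 3 Vismodegib libraries and 3 DMSO libraries of whole frozen tumours from this 1 cell line, in hosts with their own stroma and immune cells. The labels do not state that each library came from its own animal, so each p-value reflects only the spread among these samples, which may be technical.

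Histone proteins package DNA: H2A, H2B, H3 and H4 form the core of the nucleosome, and H1 binds the linker DNA where it enters and leaves the core. Transcription of the clustered genes is driven by NPAT at the start of S phase, when DNA is replicated, and the mRNA is degraded when replication ends. These mRNAs end in a conserved stem-loop in place of a poly(A) tail. SLBP, the stem-loop binding protein, holds this hairpin, and the U7 small nuclear ribonucleoprotein guides the cleavage just after it. Proliferating cells of a tumour are therefore the main known source of such transcripts, although some histone genes can also yield polyadenylated mRNA in cells that do not divide.

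The stem-loop was found where the annotation allowed a search. In the first 100 bases after the stop codon of the longest coding transcript, the sense-strand pattern of GG, any 2 bases, CTT, any base, T, any base, AG, any 2 bases and CC was present in 41 of the 48 histone genes with at least 16 annotated bases there. The pattern was loosened by single bases after the sequences had been seen. Of 20960 coding genes searched in the same way, 50 held it, or 0.239%, and these 50 include the 41 histone genes. The elements of 9 genes named in the results are shown to let the hairpins be compared. Capitals mark the 16 bases of the hairpin, with 5 bases on either side, read 5′ to 3′ from the transcript sequence.
H1f2: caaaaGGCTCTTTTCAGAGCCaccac
H2ac18: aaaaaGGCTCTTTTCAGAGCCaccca
H2ac20: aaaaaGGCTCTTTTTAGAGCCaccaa
H2ac7: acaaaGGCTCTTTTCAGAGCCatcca
H2bc12: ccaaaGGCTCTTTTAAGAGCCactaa
H3c3: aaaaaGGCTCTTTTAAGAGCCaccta
H4c9: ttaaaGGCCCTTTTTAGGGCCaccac
H4c8: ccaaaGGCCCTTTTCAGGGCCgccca
Hist1h4n: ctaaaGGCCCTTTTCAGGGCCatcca
These elements lie at H1f2 chr13:23739507-23739532 (plus strand), H2ac18 chr3:96246027-96246052 (plus strand), H2ac20 chr3:96220413-96220438 (minus strand), H2ac7 chr13:23574890-23574915 (plus strand), H2bc12 chr13:22036295-22036320 (plus strand), H3c3 chr13:23745042-23745067 (minus strand), H4c9 chr13:22040961-22040986 (minus strand), H4c8 chr13:23531453-23531478 (plus strand) and Hist1h4n chr13:21831793-21831818 (minus strand). The form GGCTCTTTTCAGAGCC, seen here in H1f2, H2ac18 and H2ac7, was the most frequent, in 23 of the 41 genes. The forms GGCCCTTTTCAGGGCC, as in H4c8, and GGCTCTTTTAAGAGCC, as in H3c3, followed with 6 and 5 genes. H2ac20 carried the form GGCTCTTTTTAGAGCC, which no other histone gene had. H2bc4, the H2B gene with the highest level, had no match within 100 bases of the stop codon in its longest coding transcript. Only that transcript was searched, so a hairpin in another transcript of the gene would be missed.

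Where the mRNA ends was annotated differently by 2 sources. RefSeq (GRCm38.p6) ended 37 of these 41 genes 3 to 6 bases after the hairpin, the place where histone pre-mRNA is cleaved. GENCODE ended 2 of them there and continued for over 100 bases past the hairpin in 19. H1f2 ended 4 bases after the hairpin in RefSeq and 840 bases after it in GENCODE, and H4c9 ended 6 and 330 bases after it. Most low RPKM values of genes with 1 transcript came out as whole reads with GENCODE lengths, so the level of one histone gene relative to another depends on these ends.

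Promoter sequence was the other feature the genes shared that their symbols did not define. RefSeq promoters, windows of 300 bases around the start of the gene, were matched for 57 of the 62 genes. The CCAAT box (CCAAT or its reverse complement ATTGG), which is bound by NF-Y, was present in 49 of these, or 86.0%, against 37.4% of 32817 promoters of the same length. The TATA box (TATAAA or TTTATA) was present in 33, or 57.9%, against 13.6% of all promoters. The octamer (ATTTGCAT or ATGCAAAT), which is bound by Oct-1 and is known from H2B promoters, was present in 11, or 19.3%, against 1.74%. Windows of H2A and H2B genes that start back to back can overlap, as those of H2ac7 and H2bc7 do. A motif in the shared stretch was counted for both genes, so the 57 windows are not all separate sequences. H2ac20 and H1f2 are shown because they were the 2 tested histone genes whose treatment groups did not overlap. Capitals mark these motifs, which did not overlap one another in either promoter.
H2ac20: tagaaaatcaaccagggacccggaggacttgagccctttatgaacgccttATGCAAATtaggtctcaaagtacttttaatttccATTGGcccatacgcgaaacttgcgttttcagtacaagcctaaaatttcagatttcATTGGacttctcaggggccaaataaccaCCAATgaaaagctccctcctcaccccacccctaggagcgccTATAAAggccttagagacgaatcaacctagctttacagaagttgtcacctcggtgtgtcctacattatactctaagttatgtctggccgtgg
H1f2: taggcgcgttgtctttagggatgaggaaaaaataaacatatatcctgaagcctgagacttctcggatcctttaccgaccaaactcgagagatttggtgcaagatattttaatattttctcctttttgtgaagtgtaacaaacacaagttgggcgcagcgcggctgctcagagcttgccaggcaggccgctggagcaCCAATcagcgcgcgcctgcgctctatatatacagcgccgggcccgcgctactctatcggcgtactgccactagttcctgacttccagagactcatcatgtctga
The H2ac20 promoter (chr3:96220831-96221130, minus strand, GRCm38.p6) held 3 CCAAT boxes, 1 octamer and 1 TATA box. That of H1f2 (chr13:23738557-23738856, plus strand, GRCm38.p6) held 1 CCAAT box and neither of the other motifs as spelled here. A match describes the letters only.

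Depth and tumour content set the frame for these values. Totals recovered from the steps of low values were 41600000, 42700000 and 57900000 reads in Vismodegib replicates 1, 2 and 3, and 37400000, 34800000 and 40400000 reads in DMSO replicates 1, 2 and 3. Histone genes took 7380 to 12094 reads per library in Vismodegib tumours and 5736 to 7562 in DMSO tumours. Of the 62 genes, 11 to 16 had under 3 reads in a Vismodegib library; in DMSO, 23 had under 3 reads in replicate 1 and 6 in each of replicates 2 and 3. Of 8 epithelial markers, 6 were above 0 and none passed, with a median difference of 0.56. Krt7 (0.78), Cldn4 (0.90) and Epcam (0.91) had unadjusted p-values of 0.0160, 0.0197 and 0.0346 from limma, and Krt7 and Cldn4 did not overlap. Of all genes tested, 1.94% were higher at an unadjusted p under 0.05 from limma, and 4.29% were higher without overlap. The sum of these 8 epithelial markers was 2880, 2779 and 2710 RPKM in Vismodegib tumours and 1776, 2588 and 2976 RPKM in DMSO tumours. In such bulk tissue, fewer cells of a type and less RNA per cell cannot be told apart. Summed fibroblast and pericyte markers (8 genes) ran from 75.9 to 185 RPKM in Vismodegib and from 64.2 to 78.0 RPKM in DMSO. Summed skeletal muscle markers (7 genes) ran from 71.9 to 144 RPKM in Vismodegib and from 9.12 to 135 RPKM in DMSO. All 5 tested adipocyte markers were above 0, with a median difference of 1.27. Summed adipocyte markers (7 genes) were 32.8, 32.0 and 8.29 RPKM in Vismodegib and 15.1, 6.32 and 4.75 RPKM in DMSO. Vismodegib replicate 3 thus lay within the DMSO range. The median deviation of 4 B cell and plasma cell markers was 0.94, -0.91 and -0.73 in Vismodegib and -1.42, 0.23 and 2.21 in DMSO. That of 5 neutrophil markers was 0.58, 0.60 and -1.04 in Vismodegib and -0.94, -0.31 and 1.42 in DMSO. DMSO replicate 1 was thus the lowest and DMSO replicate 3 the highest DMSO library for both of these lists. Other lists differed. In DMSO replicates 1, 2 and 3 the median deviation was 0.31, -0.12 and -0.05 for macrophage markers. It was 0.18, 0.01 and -0.01 for T and NK lymphocyte markers and 0.53, -0.69 and -0.74 for endothelial markers. For erythroid markers it was -0.17, 0.12 and 0.12, with DMSO replicate 1 the lowest DMSO library. The part of any of these cell types in the histone values was not tested.

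The total level of histone mRNA had the same mean in both groups, whereas its make-up differed between libraries. The summed RPKM of the 62 genes was 215, 195 and 265 in Vismodegib replicates 1, 2 and 3, and 186, 242 and 247 in DMSO replicates 1, 2 and 3. The means were 225 ± 36.0 RPKM in Vismodegib tumours and 225 ± 33.9 RPKM in DMSO tumours (SD, n = 3 each), and the groups overlapped. The 62 genes made up 0.0522% to 0.0721% of all RPKM in Vismodegib tumours and 0.0558% to 0.0714% in DMSO tumours. Their summed RPKM was small beside that of the replication-independent histone variants, which are expressed through the cell cycle from polyadenylated mRNAs. The selection of RNA is not given in the sources used here, and it could act differently on mRNAs with and without a poly(A) tail. Its part in this contrast was not tested. The sum of 15 variant genes was 1636, 1474 and 1404 RPKM in Vismodegib tumours and 1268, 1413 and 1225 RPKM in DMSO tumours.

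Most of the histone sum came from the 5 genes with the highest mean, which were H2ac18, H1f2, H4c9, H4c8 and H2bc4 in that order. This division was chosen after seeing the data. The 5 genes held 80.1%, 75.1% and 79.7% of the histone sum in Vismodegib replicates 1, 2 and 3. Their share was 85.1% in DMSO replicate 1 but 54.2% and 56.6% in DMSO replicates 2 and 3, so replicates 2 and 3 stood apart from the other 4 libraries. The remaining 57 genes summed to 42.8, 48.7 and 54.0 RPKM in Vismodegib tumours, and to 27.7, 111 and 107 RPKM in DMSO tumours. DMSO replicates 2 and 3 were thus above every Vismodegib library and DMSO replicate 1 below every one. The means were 48.5 ± 5.58 RPKM in Vismodegib and 82.0 ± 47.0 RPKM in DMSO (SD, n = 3 each), and the difference lay within the spread of the DMSO libraries.

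**Figure D1:**
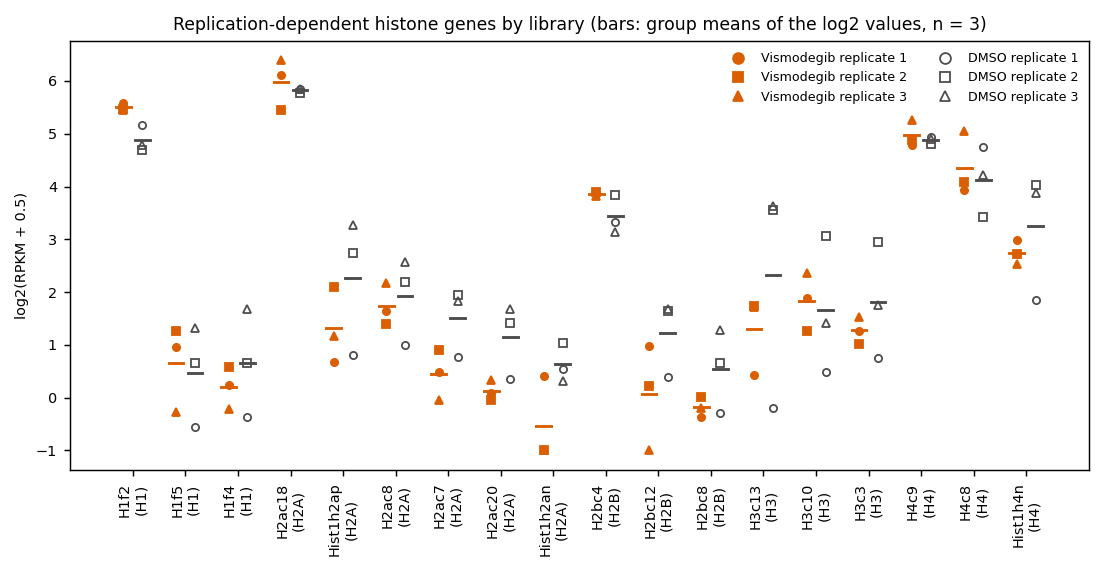
Levels of the 18 named histone genes in each library, as log2(RPKM + 0.5), grouped by class along the horizontal axis. Filled orange symbols are Vismodegib tumours, open grey symbols DMSO tumours, and bars are means of 3 libraries; for most genes outside the 5 highest, DMSO replicates 2 and 3 sit high and DMSO replicate 1 low.

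The comparison of treated with vehicle tumours was run on all genes together, on log2(RPKM + 0.5) with limma and Benjamini-Hochberg adjustment over the 11818 genes that averaged 0.5 RPKM or more. Of the 62 histone genes, 40 reached this level and 22 did not. The filter kept 7 genes that reached 0.5 RPKM in the DMSO mean only and 2 that did so in the Vismodegib mean only, while 31 reached it in both; for those 9 genes the sign follows in part from the filter. None of the 40 passed at an adjusted p under 0.05, and none of the 11818 genes did (0%); the smallest adjusted p was 0.99995 for both. At an unadjusted p under 0.05, 1 histone gene was higher and 3 were lower, where 1.94% and 0.313% of all genes tested were, and 2.25% in either direction. Of these 3, Hist1h2an was kept by the filter through its DMSO mean only. Vismodegib and DMSO libraries did not overlap for 1 tested histone gene that was higher and 1 that was lower, against a background of 4.29% and 0.745% of genes, or 5.03% together. Differences are given as Vismodegib minus DMSO on this log2 scale, on which changes of low genes come out too small.

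By sign, 28 of the 40 tested histone genes had a difference below 0, compared with 41.6% of all genes tested. These 28 include all 7 genes that reached the filter in the DMSO mean only, while the 2 that reached it in the Vismodegib mean only were above 0. The median difference of the 40 was -0.36, and that of all 11818 genes was 0.05. The 5 highest genes all had differences above 0, with a median of 0.23, while 28 of the other 35 were below 0, with a median of -0.40. The median of the tested histone genes came to -0.0842 when DMSO replicate 2 was left out (22 of 37 genes below 0) and to -0.0858 when DMSO replicate 3 was (20 of 36). Leaving out DMSO replicate 1 gave -0.77 (33 of 41). Leaving out Vismodegib replicate 1 or 2 gave -0.20 or -0.15. With no filter on low values, 43 of 62 were below 0 and the median was -0.15, so the median moved more than 1.5 times with these choices. On the 34 tested genes of chromosome 13 the median was -0.36, and on the 6 of chromosome 3 it was -0.30.

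**Figure D2:**
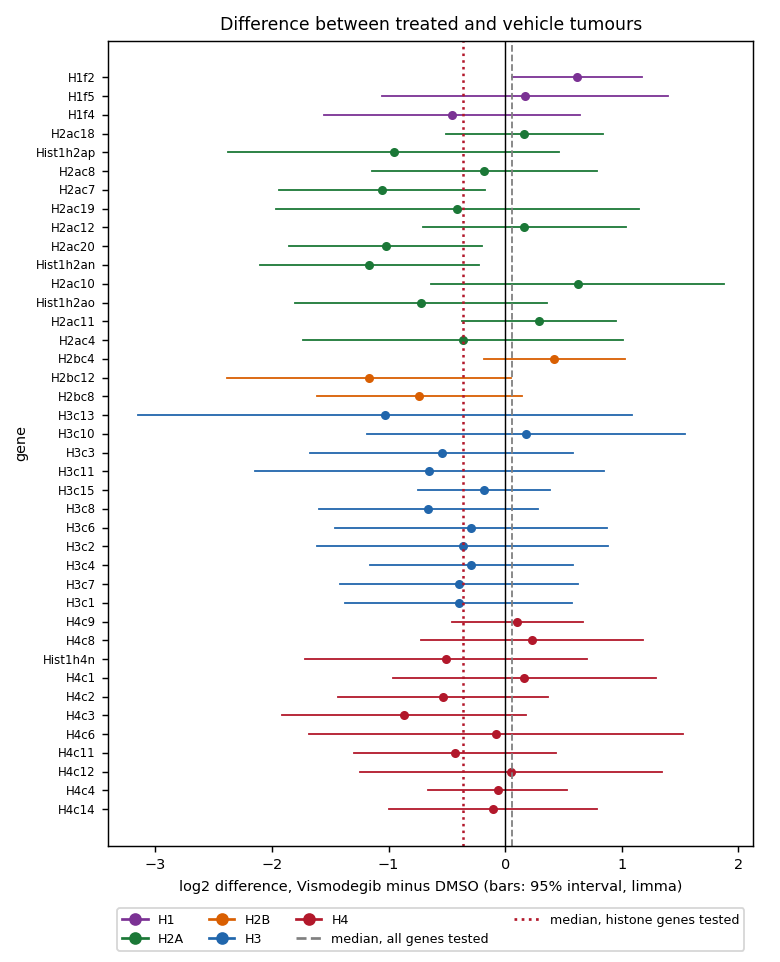
Log2 difference, Vismodegib minus DMSO, of the 40 tested histone genes with 95% intervals from limma, coloured by class and ordered by mean level within a class. The dashed grey line is the median of all genes tested (0.05) and the dotted red line that of the histone genes (-0.36); most intervals span 0, and none of the genes passed after adjustment.

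Among the 5 H1 genes of the set, 1 held most of the level. The replication-independent linker variant H1f10, which is outside the H1 sum given here, averaged 4.76 RPKM over the 6 libraries. H1f2 (ENSMUSG00000036181.2, chromosome 13, 23738808 to 23740367, plus strand) encodes the H1 subtype also called H1.2, a main linker histone of body cells. It had 47.3, 43.6 and 43.3 RPKM in the Vismodegib libraries, in order of replicate number, and 35.2, 25.4 and 27.2 RPKM in the DMSO libraries. All Vismodegib libraries were above all DMSO libraries. The difference was 0.62 (SE 0.25, 95% interval 0.06 to 1.17), with an unadjusted p of 0.0343 and an adjusted p of 0.99995 from limma with Benjamini-Hochberg adjustment. H1f2 rested on 2903 to 3913 reads per Vismodegib library and 1378 to 2055 per DMSO library. It made up 95.1%, 92.6% and 98.0% of the H1 sum in Vismodegib tumours and 98.2%, 91.2% and 83.4% in DMSO tumours.

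The other H1 genes of the set were low. H1f5, a subtype of cycling cells, was at 1.45, 1.89 and 0.325 RPKM in Vismodegib tumours and at 0.180, 1.08 and 2.00 RPKM in DMSO tumours. H1f4, another replication-linked subtype, was at 0.685, 0.994 and 0.357 RPKM in Vismodegib tumours and at 0.277, 1.08 and 2.69 RPKM in DMSO tumours. Both overlapped between groups and were highest in DMSO replicate 3 and lowest in DMSO replicate 1. Their differences were 0.17 for H1f5 and -0.46 for H1f4. H1f1 and H1f3 were below the filter, at means of 0.0542 and 0.335 RPKM.

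H2A, which pairs with H2B on the outer faces of the nucleosome core, had the gene with the highest level of all. H2ac18, on the plus strand of chromosome 3 (96245497 to 96246082), was at 68.5, 43.2 and 83.6 RPKM in Vismodegib tumours and at 57.0, 54.1 and 57.0 RPKM in DMSO tumours. The Vismodegib libraries lay on both sides of the DMSO range, and the difference was 0.16 (SE 0.30). H2ac19 has the same coding sequence, so reads can be shared between them; their sum was 70.2, 43.5 and 84.2 RPKM in Vismodegib and 60.8, 55.7 and 57.1 RPKM in DMSO.

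Below H2ac18, H2A genes with the smallest unadjusted p were lower in Vismodegib tumours, none of them past the threshold. H2ac20 (chromosome 3, 96220361 to 96220880, minus strand) had 0.555, 0.467 and 0.766 RPKM in Vismodegib tumours and 0.776, 2.15 and 2.71 RPKM in DMSO tumours. The groups did not overlap, but the gap between Vismodegib replicate 3 and DMSO replicate 1 was narrow, at 0.766 and 0.776 RPKM, from 23.1 and 15.1 reads. The difference was -1.02 (SE 0.36, 95% interval -1.85 to -0.20), with an unadjusted p of 0.0207 and an adjusted p of 0.99995 from limma with Benjamini-Hochberg adjustment. H2ac7 was at 0.904, 1.38 and 0.475 RPKM in Vismodegib tumours and at 1.20, 3.35 and 3.04 RPKM in DMSO tumours. Only Vismodegib replicate 2 and DMSO replicate 1 overlapped, and the difference was -1.06 (unadjusted p = 0.0240). Hist1h2an was at 0.826 RPKM in Vismodegib replicate 1 and listed at or near 0 in Vismodegib replicates 2 and 3, against 0.952, 1.56 and 0.748 RPKM in DMSO tumours. Its difference was -1.16 (unadjusted p = 0.0209), on at most 21.3 reads in any library. Hist1h2an reached the filter in the DMSO mean only (0.275 RPKM in Vismodegib and 1.09 RPKM in DMSO), so its sign follows in part from the filter.

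Hist1h2ap and H2ac8 completed the named H2A genes. Hist1h2ap was at 1.11, 3.79 and 1.74 RPKM in Vismodegib tumours and at 1.25, 6.17 and 9.16 RPKM in DMSO tumours. H2ac8 was at 2.61, 2.12 and 4.03 RPKM in Vismodegib tumours and at 1.49, 4.05 and 5.43 RPKM in DMSO tumours. DMSO replicates 2 and 3 were the highest libraries for both genes, and the groups overlapped. Their differences were -0.95 and -0.18. Over the 12 tested H2A genes, 8 were below 0 and the median was -0.39. It was -0.09 when Vismodegib replicate 2 was left out, -0.64 when DMSO replicate 1 was and -0.25 when DMSO replicate 2 was.

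H2B was the class with the smallest share of genes at a testable level: 3 of 17 reached the filter and the other 14 had means of 0.0122 to 0.321 RPKM. H2bc4 (chromosome 13, 23684199 to 23692908, plus strand) had 14.1, 14.4 and 13.6 RPKM in Vismodegib tumours and 9.57, 13.9 and 8.31 RPKM in DMSO tumours. Only DMSO replicate 2 reached the Vismodegib range, and the difference was 0.42 (SE 0.27, unadjusted p = 0.149). H2bc12 was at 1.46, 0.662 and 0 RPKM in Vismodegib tumours and at 0.803, 2.62 and 2.70 RPKM in DMSO tumours. H2bc8 was at 0.277, 0.506 and 0.370 RPKM in Vismodegib tumours and at 0.321, 1.08 and 1.93 RPKM in DMSO tumours. For both, DMSO replicates 2 and 3 were highest and DMSO replicate 1 lay within the Vismodegib range. The differences were -1.17 for H2bc12 and -0.73 for H2bc8. H2bc8 reached the filter in the DMSO mean only (0.384 RPKM in Vismodegib and 1.11 RPKM in DMSO), so its sign follows in part from the filter. The class median was -0.73 over 3 genes, but -0.13 over all 17 with no filter on low values and 0.42 with H2bc4 alone above a mean of 2 RPKM. Leaving out DMSO replicate 1 or 3 gave -1.15 or -0.37. H2bc3, below the filter and named after its values were seen, did not overlap between groups, with 0.0946, 0.230 and 0 RPKM in Vismodegib tumours and 0.368, 0.359 and 0.876 RPKM in DMSO tumours. It rested on at most 17.99 reads in a library, and its two-sided exact permutation p was 0.1, the smallest possible.

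Many H2B genes start back to back with an H2A gene and share the stretch of DNA between the 2 starts. There were 11 such pairs on these chromosomes, with starts 176 to 302 bases apart. The H2A gene had the higher mean RPKM in 9 of them. H2ac20 averaged 1.24 RPKM over the 6 libraries and its partner H2bc21 0.280 RPKM; H2ac8 averaged 3.29 RPKM and H2bc8 0.746 RPKM. The pair of H2ac6 and H2bc4 went the other way, with means of 0.220 and 12.3 RPKM. H2ac12 and H2bc12 were near-equal, at 1.31 and 1.37 RPKM. Means per length depend on the annotated 3′ ends, and the annotated lengths were 520 bases for H2ac20 and 2620 for H2bc21. In reads, H2bc21 exceeded H2ac20 in every Vismodegib library and in DMSO replicate 1. H2ac20 had more reads than H2bc21 in DMSO replicates 2 and 3.

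H3, which forms the centre of the nucleosome core with H4, was spread over more genes and varied most among DMSO tumours. The 12 H3 genes summed to 11.8, 13.6 and 19.7 RPKM in Vismodegib tumours and to 7.13, 44.5 and 33.3 RPKM in DMSO tumours. H3c13, on chromosome 3, was at 0.848, 2.82 and 2.81 RPKM in Vismodegib tumours and at 0.371, 11.2 and 11.9 RPKM in DMSO tumours. DMSO replicates 2 and 3 were far above every other library and DMSO replicate 1 was the lowest. Its difference of -1.03 had a 95% interval from -3.15 to 1.09. H3c10 was at 3.20, 1.89 and 4.63 RPKM in Vismodegib tumours and at 0.903, 7.88 and 2.169 RPKM in DMSO tumours, with a difference of 0.18. H3c3 was at 1.91, 1.53 and 2.40 RPKM in Vismodegib tumours and at 1.19, 7.25 and 2.86 RPKM in DMSO tumours, with a difference of -0.55. DMSO replicate 2 was the highest library and DMSO replicate 1 the lowest for both genes. Of the 11 tested H3 genes, 10 were below 0, with a median of -0.40. Leaving out DMSO replicate 2 moved that median to -0.08, DMSO replicate 3 to -0.19, DMSO replicate 1 to -0.87 and Vismodegib replicate 1 to -0.25. H3c15 was the steadiest, at 2.02 to 2.59 RPKM in Vismodegib and 2.35 to 3.27 RPKM in DMSO. H3c14 was listed near 0 in every library, at most at 1.7e-09 RPKM. Whether reads of H3c14 were assigned to another H3 copy was not tested.

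H4 combined 2 high genes with many low ones. H4c9 (chromosome 13, 22040636 to 22041362, minus strand) had 27.1, 29.1 and 38.0 RPKM in Vismodegib tumours and 30.0, 27.4 and 29.3 RPKM in DMSO tumours. H4c8 was at 14.8, 16.5 and 32.7 RPKM in Vismodegib tumours and at 26.5, 10.2 and 18.1 RPKM in DMSO tumours. Vismodegib replicate 3 was the highest library for both, and the groups overlapped. The differences were 0.10 for H4c9 and 0.23 for H4c8, and both turned below 0 without Vismodegib replicate 3 (-0.04 and -0.12). Hist1h4n behaved like the low genes, at 7.43, 6.10 and 5.25 RPKM in Vismodegib tumours and 3.11, 15.8 and 14.1 RPKM in DMSO tumours. DMSO replicates 2 and 3 were the highest libraries and DMSO replicate 1 the lowest, and the difference was -0.51. Of the 11 tested H4 genes 7 were below 0, with a median of -0.08. Leaving out DMSO replicate 1 gave -0.53, leaving out Vismodegib replicate 3 gave -0.30, and leaving out DMSO replicate 3 gave 0.01.

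Pooled over classes, the DMSO libraries fell into a recurring order, although the class medians did not all share it: the lowest library was Vismodegib replicate 2 for H2A and Vismodegib replicate 3 for H2B. Among the 35 tested histone genes outside the 5 highest, DMSO replicate 2 exceeded DMSO replicate 1 in 33 genes, and DMSO replicate 3 exceeded it in 32, compared with 59.5% and 64.5% of all genes tested. DMSO replicates 2 and 3 were both above all 3 Vismodegib libraries in 19 genes, compared with 14.7% of all genes tested. DMSO replicate 1 was below all 3 in 18, compared with 40.5% of all genes tested. The median deviation of these 35 genes from their own 6-library mean was -0.37, -0.16 and -0.06 in Vismodegib replicates 1, 2 and 3. It was -0.71, 0.69 and 0.75 in DMSO replicates 1, 2 and 3, so the spread within DMSO was wider than the distance between the groups. For all genes tested it was 0.18, 0.003 and -0.10 in Vismodegib and -0.16, 0.04 and 0.03 in DMSO, where DMSO replicate 1 was also the lowest library. For the 5 highest genes it was 0.21, -0.04 and 0.34 in Vismodegib and -0.03, -0.13 and -0.06 in DMSO.

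**Figure D3:**
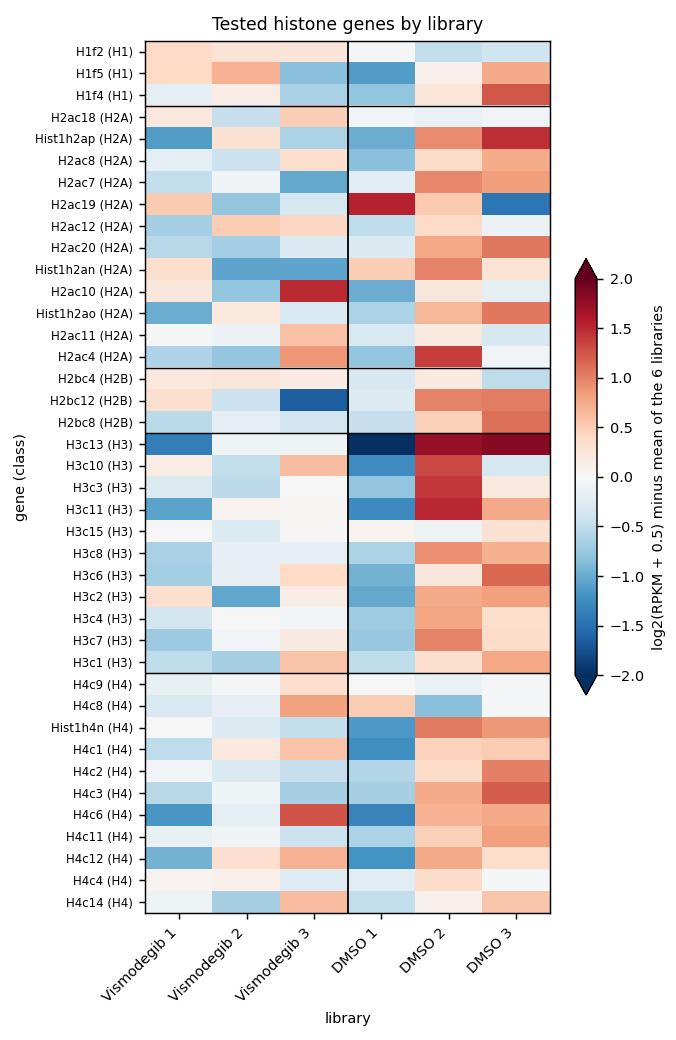
Deviation of log2(RPKM + 0.5) from the gene's mean over 6 libraries for the 40 tested histone genes (one line of cells per gene, classes divided by lines, Vismodegib libraries left of DMSO libraries). Red is above and blue below the gene's own mean; DMSO replicate 1 is mostly blue and DMSO replicates 2 and 3 mostly red, except for the genes at the head of the H1, H2A, H2B and H4 blocks.

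Copies of a class resemble one another closely, which limits what can be said of a single gene. Median identity of coding sequence between copies was 97.4% for H2A, 97.6% for H2B, 97.5% for H3 and 94.7% for H4. Of 52 genes compared, 47 had another copy more than 95% identical and 8 had an identical one. Hist1h4m and Hist1h4n are identical and summed to 7.43, 6.10 and 5.25 RPKM in Vismodegib tumours and 3.17, 15.8 and 14.1 RPKM in DMSO tumours, nearly all of it assigned to Hist1h4n. Hist1h2ao and Hist1h2ap summed to 1.11, 4.45 and 2.05 RPKM in Vismodegib and 1.39, 7.25 and 10.7 RPKM in DMSO. Copies of a class differ in annotated length, as with H3c13 (488 bases) and H3c15 (1020 bases), so the class sums of RPKM also depend on how reads were shared between copies.

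Genes that make, process and use histone mRNA were examined alongside. Of 36 tested genes for histone mRNA transcription and processing, none passed the test, 19 were above 0 and 17 below, and the median was 0.02. Slbp was at 9.73, 10.7 and 6.02 RPKM in Vismodegib tumours and at 6.06, 8.06 and 7.60 RPKM in DMSO tumours, with a difference of 0.24. Npat, the transcriptional coactivator of the clusters, was at 1.25, 1.23 and 0.814 RPKM in Vismodegib tumours and at 1.18, 0.533 and 1.32 RPKM in DMSO tumours, with a difference of 0.11. Both genes overlapped between the groups. For Slbp, DMSO replicate 1 was the lowest DMSO library, as for the low histone genes, but Vismodegib replicates 1 and 2 were above every DMSO library. Npat did not share that order, with DMSO replicate 2 its lowest library. Lsm10 and Lsm11, the Sm-like proteins particular to the U7 particle, had differences of -0.24 and -0.16, and Eri1, an exonuclease that trims histone mRNA ends, had 0.03. Casp8ap2 (also called FLASH) and Zfp473 were below the filter, at means of 0.433 and 0.0563 RPKM, with two-sided exact permutation p-values of 0.8 and 0.9, where 0.1 is the smallest possible. Snrpe, Ncbp2 and Yy1, the members with the smallest unadjusted p, had differences of 0.36, 0.34 and 0.42.

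Histone chaperones, which carry histones to DNA, numbered 30 tested genes, of which none passed, 21 were below 0 and 9 above, with a median of -0.12. Chaf1a, the large subunit of the CAF-1 assembly factor, was at 0.873, 1.14 and 0.723 RPKM in Vismodegib tumours and at 0.367, 4.38 and 2.06 RPKM in DMSO tumours. Supt16, a subunit of FACT, was at 1.41, 1.51 and 0.664 RPKM in Vismodegib tumours and at 1.18, 2.89 and 2.09 RPKM in DMSO tumours. DMSO replicates 2 and 3 were highest and DMSO replicate 1 lower in both, as in the low histone genes. Their differences were -0.66 and -0.57, and Mms22l, which acts with a reader of new histone H4, had -0.39. Of 12 tested replication-independent variants none passed, 9 were above 0 and 3 below, with a median of 0.12. H3f3a and H3f3b, which encode H3.3, had differences of 0.69 and 0.50, and the linker variant H1f10 had 0.89.

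Cell cycle genes were set beside the histone genes, since the clustered genes are expressed in S phase. Of 44 tested S phase and DNA replication genes none passed, 29 were below 0 and the median was -0.14. Of 30 tested G2 and mitosis genes none passed, 26 were below 0 and the median was -0.18. Fen1, a flap endonuclease of lagging strand synthesis, was at 14.7, 14.7 and 18.6 RPKM in Vismodegib tumours and at 13.1, 35.7 and 24.0 RPKM in DMSO tumours. Mcm10 and Orc1, which act at replication origins, had differences of -0.57 and -0.36, and the mitotic regulators Foxm1, Mki67 and Hmmr had -0.38, -0.28 and -0.34. The median deviation of the S phase genes was 0.02, -0.001 and -0.19 in Vismodegib replicates 1, 2 and 3 and -0.51, 0.67 and 0.06 in DMSO replicates 1, 2 and 3. DMSO replicate 1 was the lowest library and DMSO replicate 2 the highest, as for many histone genes, while DMSO replicate 3 was near the middle for S phase and high for histones.

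RNAs without a poly(A) tail were listed as well, because the selection of RNA before library preparation is not given in the sources used here and histone mRNA lacks that tail. Of 10 tested genes none passed, 9 were above 0 and the median was 0.93. Rmrp, the RNA of RNase MRP, was at 38.4, 61.8 and 52.3 RPKM in Vismodegib tumours and at 72.1, 13.3 and 4.31 RPKM in DMSO tumours. Rpph1, the RNA of RNase P, was at 8.21, 9.83 and 18.4 RPKM in Vismodegib tumours and at 20.6, 1.35 and 0.310 RPKM in DMSO tumours. In both, DMSO replicate 1 was the highest library and DMSO replicates 2 and 3 the lowest, opposite to the low histone genes. Rnu3a, a U3 small nucleolar RNA, had a difference of 1.21 (unadjusted p = 0.00893 from limma) and its groups did not overlap. Of all genes tested, 1.94% were higher at an unadjusted p under 0.05 from limma, and 4.29% were higher without overlap. The median deviation of the list was 0.17, 0.56 and 0.67 in Vismodegib and 0.88, -1.15 and -1.31 in DMSO. What part the make-up of the RNA, the share of dividing cells or either library pair had in the histone values was not tested.

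**Figure D4:**
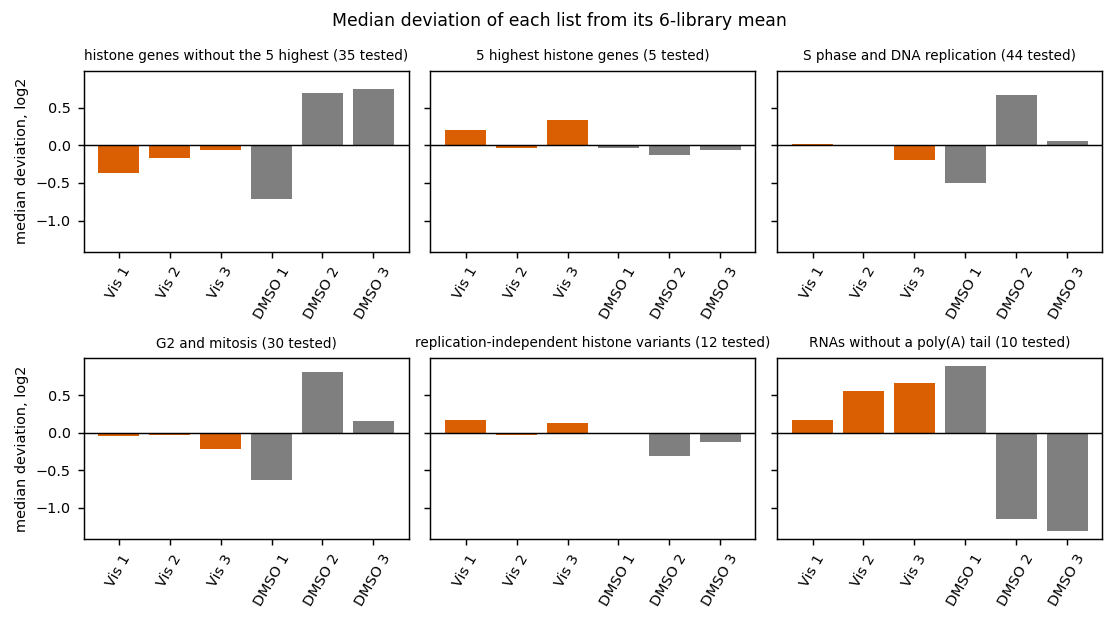
Median deviation (log2) of 6 gene lists from each gene's 6-library mean, by library, with Vismodegib in orange and DMSO in grey. Histone genes outside the 5 highest stand at -0.71 in DMSO replicate 1 and at 0.69 and 0.75 in DMSO replicates 2 and 3, S phase genes at -0.51, 0.67 and 0.06, and RNAs without a poly(A) tail at 0.88, -1.15 and -1.31.

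Some histone genes are known to yield polyadenylated mRNA in human cells, and 5 genes of the same symbols were measured here. H1f2 and H2bc4 accounted for most of their level and H2bc12 was the only other one tested; H2ac6 and H2bc21 were below the filter. Their sum was 63.5, 59.0 and 57.2 RPKM in Vismodegib tumours and 45.9, 42.3 and 39.0 RPKM in DMSO tumours, without overlap between the groups. H1f2 made up most of that sum, so it gives no separate evidence. Among the genes with a hairpin, GENCODE placed more than 300 bases after it in 16, of which 10 held a polyadenylation signal (AATAAA or ATTAAA) there. Their median level was 0.705 RPKM, against 1.24 RPKM for the 25 genes with at most 300 bases, 3 of which held the signal. The whole stretch after the hairpin was searched, so a longer stretch had more room for the signal. RPKM also divides by the annotated length, so neither contrast can be separated from the annotation.

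When limma estimated a weight for each library, 11 of the 40 histone genes passed at an adjusted p under 0.05, against 3.55% of all genes tested. H1f2 and H2bc4 were higher (2.59% of all genes were), at 0.69 and 0.70. H2ac20, H2ac7, H2bc12, H2bc8, H3c1, H3c13, H3c8, H4c2 and H4c3 were lower (0.965% of all genes were), from -0.99 for H3c8 to -2.14 for H3c13. Among these, H2bc8 and H3c1 had reached the filter in the DMSO mean only. The estimated weights were 1.26, 2.34 and 0.461 for Vismodegib replicates 1, 2 and 3, and 0.320, 0.316 and 7.28 for DMSO replicates 1, 2 and 3. That fit thus rested mainly on DMSO replicate 3, the library in which 16 of the 35 genes outside the 5 highest had their highest value. Estimation of the weights stopped before it had fully converged. Without DMSO replicate 1, 0.16% of all genes passed and no histone gene did; the smallest adjusted p among the histone genes was then 0.0948.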

How the data were processed

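RNA of 3 Vismodegib and 3 DMSO 4T1 tumours was sequenced as read pairs. The authors deposited RPKM values per gene symbol; the tools named in the submitters' processing notes are Partek, HISAT2, STAR, SAMtools, cutadapt and bcl2fastq 2.17, with build mm10. The sources used here do not give their roles, the annotation, the use of strand or the RNA selection. Because RPKM is relative to the library's reads, a value also depends on the other genes.

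Read totals were recovered from the steps of low RPKM values in 6992 genes with 1 GENCODE M21 transcript; 83.9% to 85.7% of the values up to 20 reads were then whole within 0.02 reads. Whether reads or pairs were counted is not stated. Limits from 3 reads cover counting error only.

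Genes averaging 0.5 RPKM or more over the 6 libraries were tested on log2(RPKM + 0.5) with limma 3.58.1 (R 4.3.3; lmFit, eBayes with trend). The model held group alone and the test was two-sided; p-values of the 11818 genes were adjusted by Benjamini-Hochberg. The fit was checked on simulated data. Tables and figures were made with Python 3.11.15, pandas 2.3.3, numpy 2.4.6 and matplotlib 3.10.9. Sequence features came from GENCODE M21 transcripts and RefSeq promoters. Alternatives changed the pseudocount, filter, scaling, variance model, library weights, replicate block, GC and length trend, and left out each library.

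The members and lists were chosen with earlier results of these data known. In each class the 3 genes with the highest mean were named, with the 6 tested genes of smallest unadjusted p and any past the threshold; of each related list the 3 with the smallest p, and Slbp, Npat, Casp8ap2, Lsm10, Lsm11, Zfp473 and Eri1. H1f1, H1f3, H2bc3, H3c14, H3c15, H2ac19 and the members of the pairs were named after their values were seen.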

Additional observations from a re-analysis of the deposited data

How the results depend on the processing

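In all, 18 alternatives were run, each changing 1 choice except the replicate block combined with the GC and length trend. No histone gene passed except with library weights (11), nor did any of all the genes except with library weights (420), with the replicate block (1) and without DMSO replicate 1; leaving out each library gave 0 to 19 genes. The H2B median of -0.73 was -0.13 without a filter, 0.42 above a mean of 2 RPKM and -1.31 with library weights, and the H4 median of -0.08 was -0.84 with library weights. The median of the 5 highest genes, 0.23, was 0.00407 with library weights and between -0.0386 and 0.42 with each library left out. Without H2ac18 the histone sum was 160 RPKM in Vismodegib and 169 RPKM in DMSO. The median of all tested histone genes stayed below 0 under every alternative, from -0.85 with library weights to -0.08 without DMSO replicate 2.

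Of the 317 values of named genes under alternatives, 294 kept their direction and their side of the threshold, 7 passed with library weights only and 16 changed sign. With library weights the values that changed sign were -0.23 for H1f5, -0.0811 for H2ac18 and -0.0551 for H4c8. H3c10 was -0.0235 with the trend on GC content and length removed, with or without the replicate block. With each library left out, H1f5 ran from -0.34 to 0.64, H1f4 from -0.97 to 0.0508, H2ac18 from -0.0416 to 0.43, H2ac8 from -0.64 to 0.15, H3c10 from -0.41 to 0.88, H3c3 from -1.08 to 0.0219, H4c9 from -0.0386 to 0.20 and H4c8 from -0.12 to 0.55. The cause was not tested.

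Same-numbered libraries had correlations of deviations of 0.00317, 0.0379 and -0.305, and 1 of 6 libraries correlated best with its own number. These values gave no sign of pairing by number, but so few libraries cannot show whether the samples were paired. The labels do not say so either. The replicate block left 0 histone genes past the threshold.

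With 3 libraries a group, exact permutation tests cannot go below 0.1. In DMSO replicate 1, 23 of the 62 genes had under 3 reads, against 6 in the shallower DMSO replicate 2.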

Other observations

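One of the 3 symbols left out as pseudogenes had a mean of 8.21 RPKM, which 6 of the 62 histone genes exceeded. Hist1h2al was at 6.68, 6.45 and 13.1 RPKM in Vismodegib tumours and at 6.94, 8.99 and 7.05 RPKM in DMSO tumours. H2ac14 and H2ac5-ps had means of 0.180 and 0.0983 RPKM. Hist1h2al did not follow the order of the low histone genes: its highest library was Vismodegib replicate 3 and DMSO replicates 1 and 3 were alike. Sharing of reads with functional H2A copies was not tested.

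The 22 histone genes below the filter had a higher mean in Vismodegib in 7 cases and in DMSO in 15, and their highest single value was 1.28 RPKM.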
